A study of Rattus norvegicus with 2 samples.

Results

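The unfolded protein response of rat dental papilla cells was followed through 33 genes, chosen by name from the known arms of the pathway. They comprise 16 chaperones and folding enzymes of the endoplasmic reticulum (ER) that are targets of ATF6 and XBP1, 7 genes of the PERK/ATF4 arm, 6 sensors and transducers, and 4 oxidases and other regulators. Through the RefSeq accessions of the array, 32 of the 33 matched a probe (34 probes in all), and 27 were well above background on both arrays, out of 8231 named genes so measured. The cells were primary rat dental papilla cells of postnatal day 1 to 3, expanded in 20% serum and used at passage 3 to 4. They were kept for 3 days in odontogenic induction medium (OS) based on α-MEM, with 8% serum and with dexamethasone (labelled 0.1 mM, high for such a medium, and the unit could not be checked), β-glycerophosphate (10 mM) and ascorbic acid (0.2 mM) added. One culture condition was OS alone and the other OS with 10 nM melatonin, so serum, dexamethasone and ascorbic acid were common to both. Each condition was read by 1 one-colour Agilent array. Each sample title ends in a number whose meaning the labels leave unstated, and they do not say if the RNA came from a single culture or several. With 1 array per condition there is no error between cultures, no test between the conditions, and each ratio compares these 2 arrays.

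The ER folds secreted and membrane proteins, and when unfolded protein builds up there, sensors in its membrane respond. ATF6 is cut in the Golgi by proteases and its free part acts as a transcription factor, IRE1 (gene Ern1) splices the Xbp1 mRNA, and PERK (gene Eif2ak3) phosphorylates the initiation factor eIF2α, which slows translation but favours that of ATF4. ATF6 and XBP1 raise chaperones, whereas ATF4 raises genes of amino acid supply and, through CHOP (gene Ddit3), of cell death and of recovery of translation. Cells on the way to odontoblasts secrete much collagen and so rely on this folding machinery.

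ATF6 and XBP1 act on chaperone genes largely through the ER stress response element (ERSE), with the letters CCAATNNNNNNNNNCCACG, in which CCAAT and CCACG are 9 bases apart. A search on both strands of the RefSeq promoter windows of build GRCr8, each from 250 bases before to 50 bases after the annotated start, found this element in 8 of the 26 members that have a window (30.8%). It was present in 22 of all 33469 windows (0.0657%), which belong to 21 genes, so members made up 8 of those 21. Matches in 6 of the 7 such members measured on both arrays are shown because this is the element by which the chaperone branch is known. The match in Canx, the other of the 7, is not shown. A match is a description of the letters, not a measured binding site. The element is in capitals with 8 bases of sequence on either side, and each is turned so that CCAAT comes first. Hsp90b1 has 2 matches.
Hspa5: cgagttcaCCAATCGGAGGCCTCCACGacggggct
Hsp90b1 distal: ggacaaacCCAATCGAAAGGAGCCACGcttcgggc
Hsp90b1 proximal: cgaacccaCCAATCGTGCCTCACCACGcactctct
Dnajc3: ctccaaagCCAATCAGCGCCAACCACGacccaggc
Calr: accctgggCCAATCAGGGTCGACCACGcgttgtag
Creld2: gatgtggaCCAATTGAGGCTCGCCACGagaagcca
Xbp1: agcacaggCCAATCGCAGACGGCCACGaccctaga

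Printed with their flanks, these stretches lie at chr3:38452965-38452999 (plus strand) for Hspa5, chr7:23012443-23012477 (minus strand) for Hsp90b1 distal, chr7:23012339-23012373 (plus strand) for Hsp90b1 proximal. The others lie at chr15:102432526-102432560 (plus strand) for Dnajc3, chr19:40213127-40213161 (minus strand) for Calr, and at chr7:121789231-121789265 (minus strand) for Creld2 and chr14:84604550-84604584 (plus strand) for Xbp1. The Hspa5 element spanned the bases 43 to 25 before the start and that of Xbp1 the bases 65 to 47, while that of Calr (232 to 214) lay farther upstream. The eighth member with a match, Ero1b, was too dim to measure.

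The full 250 bases before the start are given for the 2 chaperone genes with the lowest ratios, Hspa5 (chr3:38452766-38453015, plus strand) and Sdf2l1 (chr11:97376628-97376877, plus strand), both in RefSeq's GRCr8. Capitals mark the ERSE and, in Hspa5, 1 match to the unfolded protein response element (UPRE), searched as TGACGTG. The Sdf2l1 window held no match to any of the 4 motifs searched, which says only that those letters are not in this window.
Hspa5: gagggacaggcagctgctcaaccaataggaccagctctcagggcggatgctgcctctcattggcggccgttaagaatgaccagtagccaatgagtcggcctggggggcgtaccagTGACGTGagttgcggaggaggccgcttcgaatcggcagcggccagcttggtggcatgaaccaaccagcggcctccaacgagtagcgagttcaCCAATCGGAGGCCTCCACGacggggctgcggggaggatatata
Sdf2l1: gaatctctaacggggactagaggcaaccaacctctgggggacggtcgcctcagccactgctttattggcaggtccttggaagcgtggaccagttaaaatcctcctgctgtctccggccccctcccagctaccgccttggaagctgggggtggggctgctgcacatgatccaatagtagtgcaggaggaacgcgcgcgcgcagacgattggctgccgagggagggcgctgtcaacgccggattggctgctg

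The other 3 motifs were searched in the same windows. Shares of members count genes and the others count windows, as for the ERSE, and a gene can have more than 1 window. ERSE-II (ATTGGNCCACG) was found in 2 members, Hyou1 and Dnajb11 (7.69% against 0.0508% of all windows). UPRE was found in 3 members, Hspa5, Hyou1 and Dnajc10 (11.5% against 1.81% of all windows), and the Hyou1 match overlaps the more distal of the 2 ERSE-II matches of that gene, on the other strand. The composite site read by ATF4 with C/EBP factors, searched as TGATGNAA, was found in Trib3, Chac1 and Ppp1r15b (11.5% against 3.98%). The Trib3 and Chac1 sites, at chr3:161275539-161275562 (plus strand) and chr3:126795956-126795979 (minus strand), are shown as the measured examples from the PERK/ATF4 arm, again with the motif in capitals.
Trib3: cgcccggcTGATGTAAacctgagc
Chac1: agcaggagTGATGCAAcggcggag

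Of the probes in use, 55.3% passed the background flag with OS and 48.4% with melatonin, and no spot was saturated. The 75th percentile of the signal was 428 with OS and 329 with melatonin. Levels are log2 signals with this percentile set to 0, and each log2 ratio is melatonin minus OS. Over the 8231 measured genes the log2 ratio had a median of 0.039, quartiles of -0.10 and 0.18 and an SD of 0.29. All 14 markers of dental papilla mesenchyme were above background on both arrays, as were 3 of 9 odontoblast markers, while Bglap, Sp7 and Mepe were above it with OS only and Dspp, Dmp1 and Phex on neither array. The summed level of the 9 was 12.6 in both conditions, and most of it came from Alpl, with a log2 ratio of 0.004. Markers of other cell types differed between the arrays too. The summed level of 7 skeletal muscle markers went from 15.0 (linear, relative to the percentile) with OS to 9.79 with melatonin (2 of 7 above background on both arrays). Most of that sum came from Actc1, with a log2 ratio of -0.60. The sum of 8 macrophage markers went from 1.73 to 0.929 (5 of 8 on both), with Ptprc, Adgre1 and Itgam not above background. Lyz2 had the largest part in that macrophage difference, with a log2 ratio of -2.47. Laptm5 (-0.78) and Cd68 (-0.61) were lower too, while Csf1r (0.20) and Aif1 (0.072) were above 0. The endothelial sum went from 0.755 to 0.467, the red cell sum from 0.397 to 0.138, and the epithelial sum from 0.884 to 0.911, with Cdh1 and Epcam not above background. Each sum takes in all markers of the list on the array, also those not above background. On both arrays only Cdh5 (log2 ratio -0.085) and Sox18 (-0.39) of the endothelial markers were above it. Of the red cell markers only Hbb (-1.73) was, and of the epithelial ones only Tp63 (-0.029), opposite in direction to its sum. Of 4 B and plasma cell markers on the array only Sdc1, which other cells also make, was above background (summed level 42.6 and 40.2). The part of such cells in the ratios below was not tested, and in bulk RNA fewer cells of a type and less RNA per cell cannot be told apart.

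The error of a single ratio was wide. Of the 27 measured members, 21 were read by 1 spot, 2 by 2 probes and 4 by 8 to 10 spots of 1 probe. For a bright single spot the extraction software's own error gave 0.20 on the log2 ratio. Across 1033 probes with 8 or more usable spots the median SD between spots was 0.16. The software error and the SD between spots cover the spot and not the culture. The log2 ratios of genes read by 1 spot had an SD of 0.31 across genes, which also takes in any difference between the conditions.

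Among Hspa5 and its partners, Sdf2l1 and Hspa5 itself were lower with melatonin by more than 1.5-fold. These 7 genes were grouped from the members alone, and 6 had a log2 ratio below 0 (85.7% against 42.4% of all genes), with a median of -0.23. Sil1 and Sec63, partners of BiP that stand in the other lists, were above 0, at 0.20 and 0.27. Dnajc3 and Dnajc10, which count among the 6, lay closest to 0, the former within its software error and the latter above 0 when outlier spots were kept. Hspa5 encodes BiP, the Hsp70 chaperone of the ER lumen that also holds the sensors inactive. Its signal was 32475 with OS and 15651 with melatonin, or 6.25 and 5.57 as normalized log2 levels. This is a log2 ratio of -0.67 with a software error of 0.20, or 1.59-fold lower, the 159th lowest of 8231 genes.

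Sdf2l1 encodes a co-chaperone that works with BiP and its J-domain partners. Its 2 probes gave signals of 2017 and 740 with OS and of 893 and 310 with melatonin. Both probes were lower with melatonin, with log2 ratios of -0.79 and -0.87. Their mean of -0.83 (software error 0.145) made Sdf2l1 1.78-fold lower, the lowest of the members, and it was the only member past 1.5-fold for which 2 probes could be compared.

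The other partners of BiP among the members lay closer to 0. Hyou1, the large Hsp70-related protein that exchanges nucleotide on BiP, had signals of 8442 and 5511 (OS and then melatonin), a log2 ratio of -0.23. Dnajb9 (ERdj4), a J-domain protein that aids IRE1 repression and degradation, had 323 and 207, a log2 ratio of -0.26. Both ratios are little above their software errors of 0.20 and 0.21. Dnajc3 (p58IPK), a co-chaperone also known to restrain PERK, had signals of 411 and 287, a log2 ratio of -0.13. Dnajc10 (ERdj5), a reductase that opens disulfide bonds, had a mean log2 ratio of -0.057 ± 0.099 (SD between 9 spots), with single spots from -0.19 to 0.10. Dnajb11 (ERdj3), which hands clients to BiP, was the one partner among the members above 0, at 0.11 ± 0.32 (SD between 8 spots). Of its spots 3 were below 0 and 5 above. For these last 2 genes the spots straddled 0, so the direction is not resolved.

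The calnexin and calreticulin cycle and the disulfide isomerases were mixed. Calr, the soluble lectin chaperone that also binds calcium, had signals of 2538 and 1625, a log2 ratio of -0.26. Canx, its membrane-bound relative, had 284 and 219, a log2 ratio of 0.009. With a software error of 0.20 on Calr and 0.21 on Canx, the gap between the 2 lectins is not resolved. Hsp90b1 (GRP94), the ER form of Hsp90 and often named with BiP as a marker of ER stress, had 5292 and 3883, a log2 ratio of -0.065, within its error of 0.20.

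The 4 protein disulfide isomerases lay on both sides of 0, with a median of 0.053. Pdia4 (signals of 1346 and 954) had a log2 ratio of -0.115 and Pdia3, the partner of the lectins, -0.027 (1869 and 1408). P4hb, which is also the β-subunit of the collagen prolyl 4-hydroxylase, stood at 0.13 (14729 and 12414), and Pdia6 at 0.25 (11624 and 10637). Pdia6, read by 1 spot with a software error of 0.20, was thus the highest of the chaperone group, opposite in sign to Hspa5. Its ratio was 0.10 with normexp background correction. The P4hb ratio turned to -0.080 with normexp background correction. Creld2, a secreted ER stress protein with isomerase activity, had signals of 586 and 378, a log2 ratio of -0.25. Manf, a secreted neurotrophic ER stress protein, had no matching probe and is not analysed here.

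**Figure D1:**
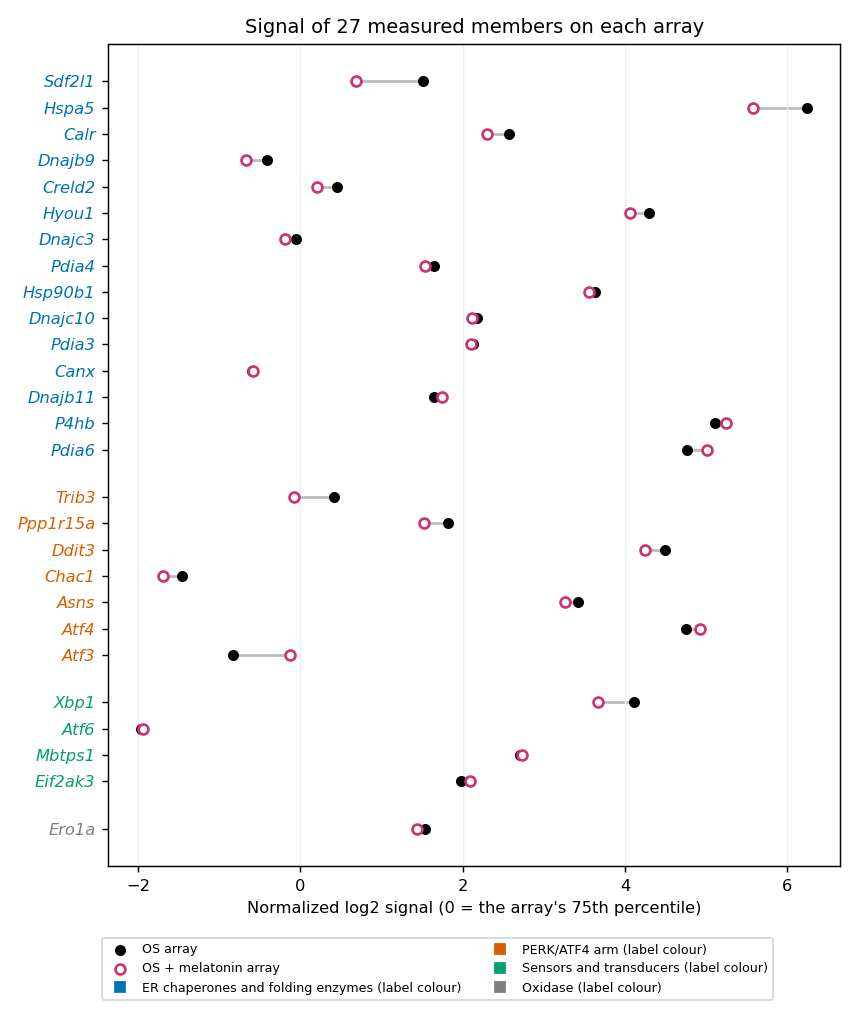
Normalized log2 signal (x axis, 0 is the 75th percentile of the array) of the 27 members measured on both arrays, ordered within each arm by ratio, with a filled point for the OS array and an open point for the melatonin array. The open point lies clearly to the left for Sdf2l1, Hspa5, Trib3 and Xbp1 and to the right for Atf3, and the pairs nearly coincide for Canx, Atf6 and Mbtps1.

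In the PERK/ATF4 arm 5 of 7 genes were below 0, against 42.4% of all genes, with a group median of -0.24. Atf3 and Atf4 were above 0. Atf4, the factor whose translation PERK favours, had signals of 11575 and 9970, and its log2 ratio was 0.17 ± 0.30 (SD between 8 spots). Single spots ran from -0.12 to 0.83, 3 of them below 0, and the next highest after 0.83 was 0.255.

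Atf3, a stress-induced factor downstream of ATF4, had signals of 240 and 300, or -0.84 and -0.13 as normalized log2 levels. It was 1.63-fold higher with melatonin, a log2 ratio of 0.70 with a software error of 0.21, read by 1 spot, and ranked 88th from the highest. It was the one member past 1.5-fold on the higher side.

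Trib3, a pseudokinase and a target of ATF4 and CHOP that feeds back on both, had signals of 572 and 311. It was 1.41-fold lower (log2 ratio -0.50, software error 0.21). Ppp1r15a (GADD34), the stress-induced subunit that lets eIF2α be dephosphorylated, had 1511 and 942, a log2 ratio of -0.30. Ddit3, which encodes CHOP, had 9643 and 6234, a log2 ratio of -0.25. Chac1, a glutathione-degrading enzyme that is a sensitive ATF4 target, had 156 and 101, a log2 ratio of -0.24. Asns, asparagine synthetase, had 4594 and 3162, a log2 ratio of -0.16, which is inside its error. Trib3 alone among these 5 lay more than 2 software errors below 0.

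Among the sensors and transducers only Xbp1 stood away from 0. Its signal was 7431 with OS and 4177 with melatonin (normalized log2 levels 4.12 and 3.67), 1.37-fold lower, with a log2 ratio of -0.45 and a software error of 0.20. Xbp1 mRNA is both the substrate of IRE1 and a target of ATF6, and the array signal does not tell spliced from unspliced mRNA. Eif2ak3, which encodes PERK, stood at 0.11 ± 0.23 (SD between 10 spots), with 7 spots above 0 and 3 below. Atf6 was read by 2 probes with log2 ratios of -0.024 and 0.070, a mean of 0.023. Mbtps1, the site-1 protease that cuts ATF6, stood at 0.027 (2792 and 2185). The median of these 4 genes was 0.025, next to the 0.039 of all genes, and Xbp1 was the exception.

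**Figure D2:**
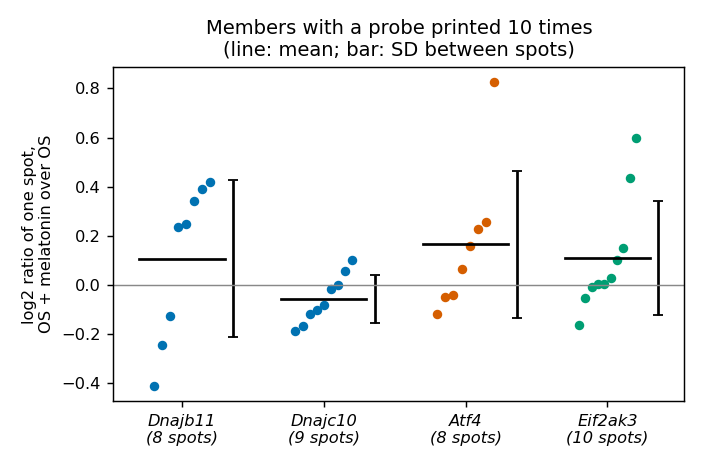
log2 ratio of single spots (y axis) for the 4 members whose probe is printed 10 times, with 8 to 10 usable spots, the mean as a line and the SD between spots as a bar. Spots lie on both sides of 0 for all 4 genes, from -0.41 to 0.42 for Dnajb11 and up to 0.83 for Atf4.

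Of the oxidases and other regulators only Ero1a, which supplies oxidizing power to the disulfide isomerases and is also induced by hypoxia, was measured on both arrays. Its signals were 1237 and 887, a log2 ratio of -0.099. Ero1b, Wfs1 (a membrane protein of the ER that restrains ATF6) and Ppp1r15b (the constitutive relative of GADD34) failed the background flag in both conditions, as did Ern1 among the sensors. Mbtps2, the site-2 protease, passed it with OS alone, at a signal of 27.8. Its normalized log2 level was -3.945 there and -3.41, not well above background, with melatonin, so no fold can be given. These 5 genes have no direction here.

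Counted against the array as a whole, few members passed a fold threshold. Lower by at least 1.5-fold were 2 of 27 measured members (7.41%), Hspa5 and Sdf2l1, against 2.64% of all measured genes, and higher was 1 (3.70%), Atf3, against 2.03%. At a looser threshold, a log2 ratio of 0.32, 4 members were lower (14.8%), the same pair with Trib3 and Xbp1, against 7.85% of all genes, and 1 was higher (3.70%) against 10.1%. Below 0 were 18 of the 27 (66.7%) against 42.4% of all genes, and 21 (77.8%) lay below the median of all genes. With so few members, chosen with earlier results of these data known, these shares are a description of 2 arrays.

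**Figure D3:**
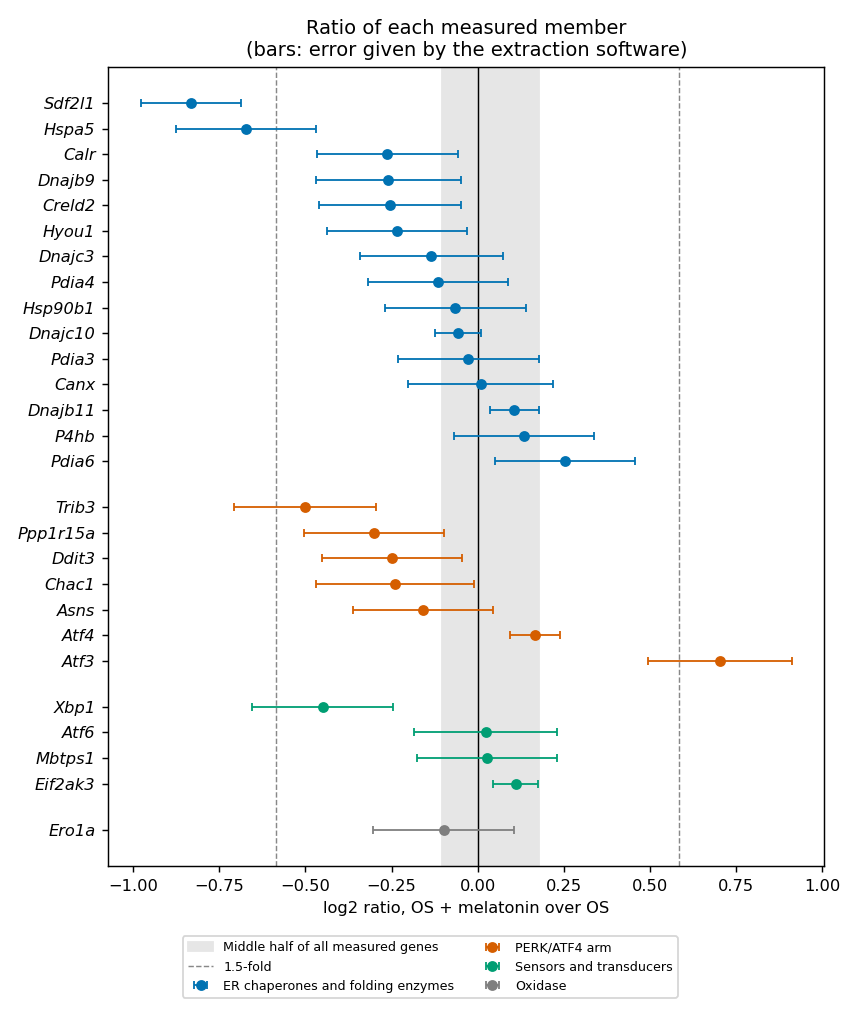
log2 ratio of melatonin over OS (x axis) for each of the 27 measured members by arm, with the error the extraction software gives as a bar, the band between the quartiles of all measured genes in grey and 1.5-fold as dashed lines. Sdf2l1 (-0.83) and Hspa5 (-0.67) lie beyond the lower line and Atf3 (0.70) beyond the upper one, and most others have bars that reach the grey band.

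Set side by side, the ranges of the chaperones and the PERK/ATF4 arm overlapped, and the median of the sensors was near that of all genes. The chaperones had a median log2 ratio of -0.115 over 15 genes and a range of -0.83 to 0.25. The PERK/ATF4 arm had -0.24 over 7 genes and a range of -0.50 to 0.70. The chaperone median was 0.12 above that of the PERK/ATF4 arm, and with normexp background correction this difference was -0.013, so the order of the medians was not stable. The chaperones were 0.15 and the PERK/ATF4 arm 0.28 below the median of all genes, and the sensors 0.014 below it. Each arm had genes on the side of 0 opposite to most of it. These were Pdia6, P4hb, Dnajb11 and Canx among the chaperones, Atf3 and Atf4 in the PERK/ATF4 arm, and Xbp1 among the sensors. Of them, P4hb and Canx changed sign with the processing, and Dnajb11 and Atf4 had spots on both sides of 0, so their side is not resolved. Pdia6 lay little above its software error of 0.20.

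**Figure D4:**
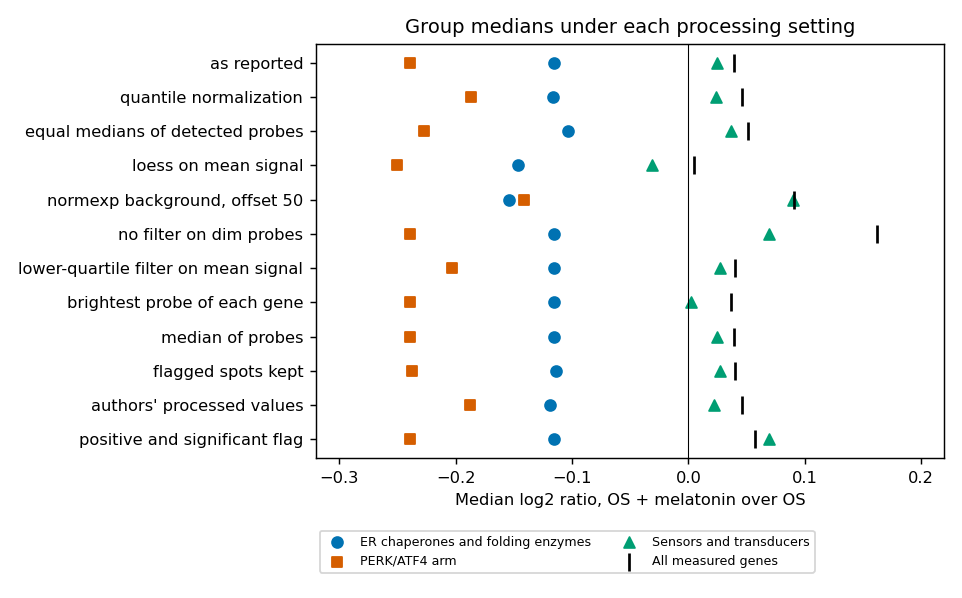
Median log2 ratio (x axis) of the 3 arms and of all measured genes under the reported processing and 11 alternatives (y axis). Chaperones (-0.15 to -0.10) and the PERK/ATF4 arm (-0.25 to -0.14) lie left of 0 in each setting and the sensors between -0.031 and 0.090, and the order of the first 2 arms turns with normexp correction.

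Promoter elements and ratios were compared as a description. Of all measured genes 42.4% were below 0, the share to set beside each count in this paragraph. The 6 measured chaperones with an ERSE in the window had a median log2 ratio of -0.19 (5 of 6 below 0). The exception, Canx at 0.009, is the measured member whose match is not shown above. The 7 with a window and no ERSE had -0.115 (5 of 7 below 0), and they include the lowest, Sdf2l1. Xbp1, also with an ERSE, stood at -0.45. Over the whole array 14 genes with an ERSE were measured, with a median of -0.10 and 9 below 0. The 7 that are not members had a median of 0.004 and ran from -1.29 for Derl3, a factor of ER-associated degradation, through Ankmy2 at -0.24, to 0.35 for Zfp57. Derl3, at 2.45-fold lower, was below every member. Of the 7, 3 were below 0 and 4 above it.

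Other genes around the pathway were taken from lists of the neighbouring pathways, and each list's 2 largest ratios are named. Among 14 measured genes of ER-associated degradation, 8 were below 0 (57.1% against 42.4% of all genes) and the median was -0.055. Derl3 was the 1 past 1.5-fold, on the lower side (7.14% of the list against 2.64% of all genes). Herpud1, which scaffolds the ubiquitin ligase complex, stood at -0.24. Among 19 other ATF4 targets 12 were below 0 (63.2% against 42.4% of all genes), with a median of -0.054. Aars1, the alanyl-tRNA synthetase, was 1.51-fold lower, the 1 gene of that list past 1.5-fold (5.26% against 2.64% of all genes). Vldlr stood at -0.46. The median of the list thus lay closer to 0 than that of the 7 members of the PERK/ATF4 arm. The share below the median of all genes was similar, 68.4% of the list and 71.4% of that arm.

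Folding enzymes that were not among the members lay on both sides of the median of all genes, with 10 of 20 measured below it. Of the 20, 9 were below 0 (45% against 42.4% of all genes), the median was 0.071 and none was past 1.5-fold. At the looser threshold 7 were higher (35% against 10.1%) and 1 lower (5% against 7.85%). The prolyl isomerase Fkbp14, which acts on collagen, was 1.49-fold higher, and the disulfide isomerase Pdia5 1.40-fold. Of 26 genes of the translocon and of N-glycosylation 19 were above 0 and 7 below it (26.9% below against 42.4% of all genes), with a median of 0.070. Ssr3, a subunit of the translocon-associated complex, was the 1 past 1.5-fold, at 1.56-fold lower (3.85% against 2.64% of all genes). Ddost, a subunit of the oligosaccharyltransferase, stood at -0.47.

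The other eIF2 kinases and eIF2α had a median of 0.15 over 4 genes, with Eif2ak4 (GCN2) at 0.27 and Eif2ak2 (PKR) at 0.26. Of 5 relatives of ATF6 in the ER membrane 3 were measured, and these were below 0, against 42.4% of all genes. Creb3l2, which drives secretory genes in cartilage, was 2.08-fold lower by 1 spot, Atf6b stood at -0.40 and Creb3l1 at -0.086. Chaperones of the cytosol and mitochondria, listed together with the heat shock transcription factor Hsf1, had a median of 0.028 over 14 genes, near that of all genes. Hsph1, a cytosolic Hsp110, was 2.05-fold higher by 1 spot, and Hspd1, the mitochondrial Hsp60, 1.39-fold higher.

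**Figure D5:**
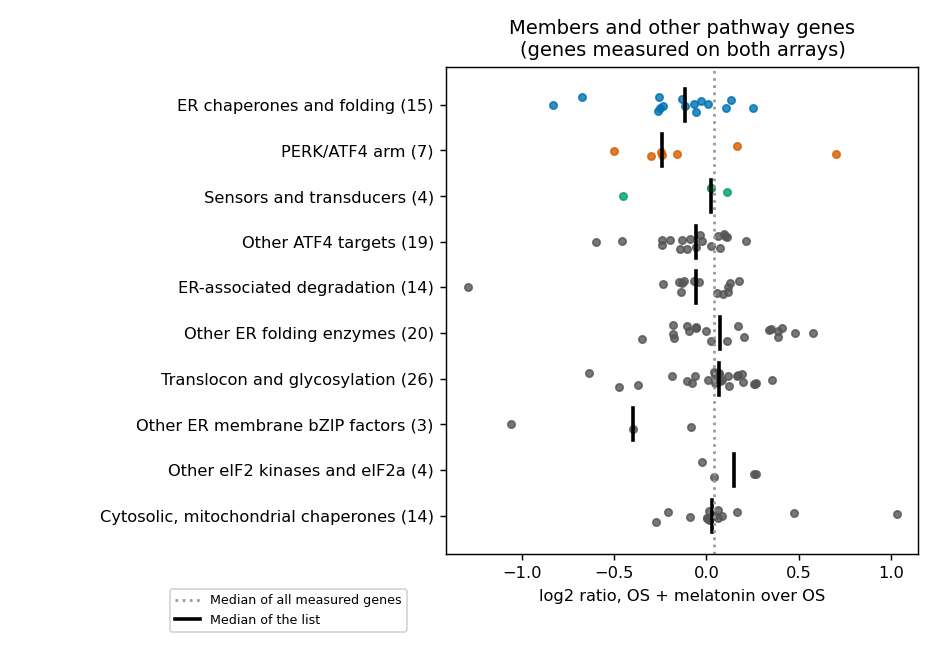
log2 ratio of melatonin over OS (x axis) for single genes (points) and list medians (black lines) in the 3 arms and 7 other pathway lists, with the number of measured genes in brackets and the median of all genes dotted. The PERK/ATF4 arm (-0.24) and the chaperones (-0.115) lie left of the dotted line, while the other folding enzymes (0.071) and the translocon genes (0.070) lie right of it.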

How the data were processed

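The members and lists were chosen with earlier results of these data known. The 2 samples, 1 per condition, were grouped by their labels. Total RNA was labelled with Cy3, per the labels' protocols. Spot intensity is the processed signal of Agilent Feature Extraction 11.0.1.1 (array design 028282, annotation build rn4), per the file headers, with no scaling across arrays. The software's error and the deposited flags for background, saturation and outliers were used as given. The authors' deposited table holds log2 values, which correlated with the scanner signal across probes at 0.9997 and 0.999. The labels and headers used here do not give their normalization.

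Outlier spots were left out, log2 signals were scaled to each array's 75th percentile, spots were averaged per probe, and each gene was the mean of its probes that passed the well-above-background flag in at least 50% of spots in both conditions. Accessions were matched to RefSeq symbols of GRCr8, and 18000 of 30359 probes matched. All members are named, and from other lists the 2 largest ratios. Genes past 1.5-fold were counted in each direction. No test between conditions was run, as there is 1 array each, which limits precision. Protein sequences were planned and are not analysed here, and not every promoter match found is reported here. The gene step was tested on simulated data. Alternatives were other scalings (loess span 0.4), normexp with offset 50 on the median signal (limma 3.58.1), other filters, flags and thresholds, and the authors' values. Calculations used Python 3.11.15 and R 4.3.3.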

Additional observations from a re-analysis of the deposited data

How the results depend on the processing

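Over 11 alternative settings the chaperone median stayed between -0.15 and -0.10. The PERK/ATF4 median stayed below 0 and moved to -0.14 with normexp correction. The sensor median of 4 genes turned to -0.031 with loess. The gap of 0.12 between chaperones and the PERK/ATF4 arm narrowed to 0.071 with quantile normalization, 0.069 with the authors' values and 0.088 with the lower-quartile filter, and turned to -0.013 with normexp. The causes were not tested, except that the quartile filter leaves fewer genes. The count of higher members was 0 with normexp (Atf3 at 0.52) and 0 at 2-fold, and 3 without the filter on dim probes and 3 with the positive and significant flag, both of which add probes near background. The count of lower members was 0 at 2-fold, 4 at a log2 ratio of 0.32 and 3 without the filter on dim probes. The median of all genes was 0.16 without the filter on dim probes. Of 27 measured members 21 kept their sign in each setting, 16 of them below 0, and 6 changed it: Dnajc10, Pdia3, P4hb, Canx, Atf6 and Mbtps1. For a member with 1 probe, the brightest probe, the median of probes, the filters on signal and the other flag return the reported value by construction. The count of kept signs and the next count are in part fixed by this. Of 295 recomputed member values 290 moved by less than the SD between spots. The 5 that moved more, all with normexp, were those of Atf3, Atf6, Canx, Hspa5 (-0.89) and P4hb. Signal over background limits Ern1, Ero1b, Wfs1, Ppp1r15b and Mbtps2. No paired analysis was possible because each condition has 1 array.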
